A study of Mus musculus with 81 samples.

Results

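The genes described here belong to the bone morphogenetic protein (BMP) branch of TGF-beta signalling in mouse heart. They were 10 listed genes, each read from its single-symbol probe set with the highest mean over 81 arrays, out of 22180 genes measured in this way. They comprise the ligands Bmp2, Bmp4, Bmp6 and Bmp10, the signal transducer Smad9, the target genes Id1, Id2 and Id3, and the inhibitory Smads Smad6 and Smad7. All 10 were found, each with 1 such probe set, and no filter on level was applied.

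BMP ligands bind pairs of type I and type II receptor kinases, which phosphorylate Smad1, Smad5 and Smad9. These join Smad4 in the nucleus and switch on target genes, of which the Id genes are the classical ones. Smad6 and Smad7 are targets as well and feed back on the pathway, Smad6 mainly on BMP receptors and Smad7 on BMP and TGF-beta receptors. In the heart the pathway acts in chamber and valve formation, and Bmp10 is made in the adult mouse by atrial muscle cells.

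Hearts came from male mice 29 weeks old and fasted overnight, of the BXD recombinant inbred family (derived from C57BL/6J and DBA/2J) and both parents. For each array the RNA of about 5 animals that shared strain and diet was mixed in equal amounts, giving 39 high fat pools and 42 chow pools. Of 39 strains with both diets 37 were BXD strains, and BXD60, BXD79 and BXD92a had a chow pool alone. The protocol text names a chow for every sample, against the label of the high fat pools, and the make-up of the fat-rich food is not known here. Pooling hides the spread between animals, so the strains served as replicates. Neither labels nor headers name an array batch or date, so the diet and the set of arrays cannot be told apart. Of 92 probe sets for ERCC spike-ins, RNAs foreign to the mouse, 37 (40.2%) passed the diet test, against 15170 of all 41345 probe sets (36.7%). Of the 92, 95% differed by at most 0.247 units, and the largest difference was 0.430 units. Of all probe sets 95% differed by at most 0.311 units. The spike-ins had a mean level of 5.96 units, against 8 for all probe sets and lower than that of every member. Their range is therefore a yardstick from dimmer probe sets. In whole hearts fewer cells of a type and less RNA per cell cannot be told apart.

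Values are in units of the deposited scale, on which every array averages 8 with an SD of 2. Whether a unit is a doubling is unknown, so no fold is given. All are high fat minus chow within a strain unless stated. A gene is called at an adjusted p under 0.05 in limma, with Benjamini-Hochberg adjustment over all genes tested.

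The promoters of 3 members are shown because their transcripts moved together from strain to strain, as described further on. Each runs from 250 bases before to 50 bases after the RefSeq gene start (GRCm38.p6), read 5′ to 3′ on the gene's strand. They lie at chr9:64022010-64022309 on the minus strand (Smad6), chr12:25096043-25096342 on the minus strand (Id2) and chr6:87428744-87429043 on the plus strand (Bmp10). Capitals mark motifs that were chosen after the sequences had been read.
Smad6: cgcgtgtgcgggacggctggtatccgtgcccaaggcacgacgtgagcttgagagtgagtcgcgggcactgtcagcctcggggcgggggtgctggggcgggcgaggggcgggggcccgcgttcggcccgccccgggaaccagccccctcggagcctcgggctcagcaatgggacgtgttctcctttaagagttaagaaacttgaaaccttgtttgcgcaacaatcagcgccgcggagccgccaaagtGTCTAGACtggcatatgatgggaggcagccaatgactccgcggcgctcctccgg
Id2: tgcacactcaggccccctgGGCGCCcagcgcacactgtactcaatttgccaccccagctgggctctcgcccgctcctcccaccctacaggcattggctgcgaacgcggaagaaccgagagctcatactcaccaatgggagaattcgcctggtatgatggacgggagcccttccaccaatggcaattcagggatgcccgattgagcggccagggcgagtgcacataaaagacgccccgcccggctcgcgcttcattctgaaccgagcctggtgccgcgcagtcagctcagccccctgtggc
Bmp10: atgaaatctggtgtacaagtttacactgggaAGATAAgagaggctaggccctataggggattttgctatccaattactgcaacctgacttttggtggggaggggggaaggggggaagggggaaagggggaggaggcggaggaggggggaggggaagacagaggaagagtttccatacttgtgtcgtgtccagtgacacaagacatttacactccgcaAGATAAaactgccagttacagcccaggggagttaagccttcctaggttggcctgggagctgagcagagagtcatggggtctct

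The capitals in Smad6 are GTCTAGAC, a palindromic Smad binding element that begins 4 bases before the start and runs across it. On either strand this motif stood in 70 of 32851 RefSeq promoters of this length (0.213%). In Id2 they are GGCGCC, a GC-rich element bound by Smads of the BMP branch, beginning 231 bases before the start, a motif held by 3898 promoters (11.9%). In Bmp10 they are AGATAA, beginning 219 and 33 bases before the start, and 3672 promoters (11.2%) held these letters on either strand. Zinc finger factors of the Gata family, several of them active in heart muscle, bind such letters. The 3 promoters thus shared none of these motifs. A match of letters is a description and not a bound site. Of the other members Smad9, Id3, Bmp4 and Bmp6 were in the promoter table, and only Smad9 held one of these motifs (the one named for Id2, beginning 51 bases before the start).

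The first question was how the diet changed the pathway's members within strains. Smad6, the BMP-selective brake, was the member with the widest separation: it was higher on high fat in 37 of 39 strains. Bmp2 was higher as well and Bmp6 lower. The target genes Id1, Id2 and Id3 did not pass the test in either direction, and neither did Smad7, Smad9, Bmp4 and Bmp10. Thus 2 of 10 members were higher and 1 was lower, against 23.8% and 21.2% of all genes (45% in either direction). The members' median difference was 0.0533 units, and that of all genes 0.00526.

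Among the ligands, Bmp2, which acts in valve formation and conduction tissue, had a lowest, median and highest level of 7.23, 7.77 and 8.25 units on high fat and of 6.75, 7.52 and 8.06 units on chow. The ranges overlapped widely, with 7 high fat pools above every paired chow pool. Its mean level of 7.63 units was, alone among the members, under the median gene level (8.18 units). Its difference was 0.271 ± 0.0572 units (SE, 39 strains, limma adjusted p = 1.49e-04), and it was higher in 33 strains. BXD71 had the highest shift (1.06) and BXD69 the lowest (-0.823).

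Bmp6, known in the liver for the control of iron through hepcidin, had a lowest, median and highest level of 9.98, 10.32 and 10.86 units on high fat and of 10.19, 10.52 and 10.82 units on chow. The ranges overlapped almost entirely, though 33 of 39 high fat pools lay below the chow median. It fell by 0.171 ± 0.0335 units (SE, limma adjusted p = 5.35e-05) and was lower in 34 strains, with BXD68 the farthest exception (0.572). The size of its difference was inside the range that held 95% of the spike-ins. That of Bmp2 lay beyond this range but below the largest spike-in difference (0.430 units), and that of Smad6, given further on, was just above the largest.

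Bmp4, a ligand of the embryonic outflow tract, averaged 9.79 ± 0.263 units on high fat and 9.74 ± 0.213 on chow (SD, n = 39 strains each). Its difference of 0.0552 units had a 95% interval of -0.0394 to 0.150 and was not called (limma adjusted p = 0.350).

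Bmp10, the atrial ligand, varied more than almost any other transcript. Its lowest, median and highest levels were 6.55, 11.64 and 13.57 units on high fat and 6.60, 11.02 and 13.36 units on chow. The diets overlapped over the whole range. The SD over all 81 arrays was 2.08 units, second among all genes after the immune gene H2-Ea (2.33), and the atrial genes Sln (2.03) and Myl7 (2.01) came next. Its difference of 0.498 ± 0.418 units (SE) had a 95% interval of -0.344 to 1.34 and was not called (limma adjusted p = 0.343). Single strains ran from -4.07 units (BXD71) to 6.42 units (BXD63). It was over 2 units higher on high fat in 10 strains and over 2 units lower in 8. Bmp10 lay under 8.18 units, the median gene level, on 10 high fat and 10 chow arrays, and only 2 strains had both arrays there.

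Smad9, a receptor-activated Smad that carries the BMP signal to the nucleus, averaged 8.33 ± 0.252 units on high fat and 8.28 ± 0.264 on chow (SD, n = 39 strains each). Its 95% interval for the difference was -0.0351 to 0.153 units (limma adjusted p = 0.313).

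The Id genes encode helix-loop-helix proteins that lack a DNA-binding region and hold other transcription factors off DNA. Id1 had a lowest, median and highest level of 9.46, 9.89 and 10.38 units on high fat and of 9.12, 9.97 and 10.27 units on chow. The ranges overlapped nearly in full, and Id1 was higher on high fat in only 13 strains. Its difference of -0.0490 units had a 95% interval of -0.129 to 0.0307 (limma adjusted p = 0.323). Id3 gave an interval of -0.0945 to 0.0368 units (limma adjusted p = 0.493).

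Id2 had a lowest, median and highest level of 9.98, 11.08 and 11.75 units on high fat and of 10.59, 11.02 and 11.61 units on chow. The high fat range enclosed the chow range, and Id2 was higher on high fat in 20 of 39 strains. Its 95% interval was -0.0704 to 0.156 units (limma adjusted p = 0.561), with single strains between -1.05 (BXD68) and 0.846 (BXD63). The intervals of all 3 Id genes lay below the Smad6 interval given next.

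Smad6 had a lowest, median and highest level of 9.50, 10.09 and 10.90 units on high fat and of 9.27, 9.65 and 10.11 units on chow. The ranges overlapped, but 17 high fat pools lay above every paired chow pool and 38 of 39 lay above the chow median. Its difference was 0.442 ± 0.0443 units (SE, 95% interval 0.352 to 0.531, limma adjusted p = 7.46e-11), larger than that of 99.6% of genes. It was 1.19 units higher on high fat in BXD45. In BXD71, 1 of the 2 strains where it was lower, it differed by only -0.036 units. DBA/2J had 10.24 units on high fat and 9.61 on chow, and C57BL/6J 10.29 on high fat and 9.65 on chow, so both parents showed the direction.

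Smad7, the other inhibitory Smad, differed by 0.0515 ± 0.0499 units (SE, 95% interval -0.0490 to 0.152, limma adjusted p = 0.416) and was higher in 24 strains. Its interval lay wholly below that of Smad6.

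**Figure D1:**
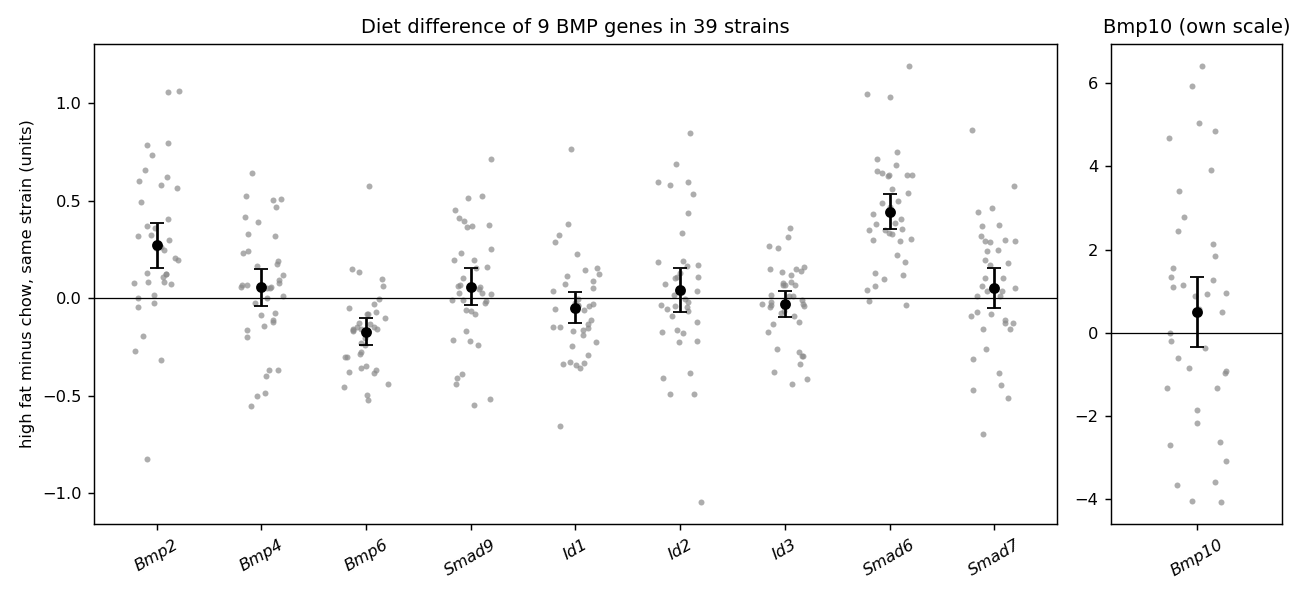
Diet shift of each member: the vertical axis is high fat minus chow in units, each grey point 1 of 39 strains, and the black points and bars the mean and its 95% interval. Smad6 and Bmp2 have intervals above 0 and Bmp6 one below 0, while Bmp10, on an axis of its own, spreads from -4.07 to 6.42 units.

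**Figure D2:**
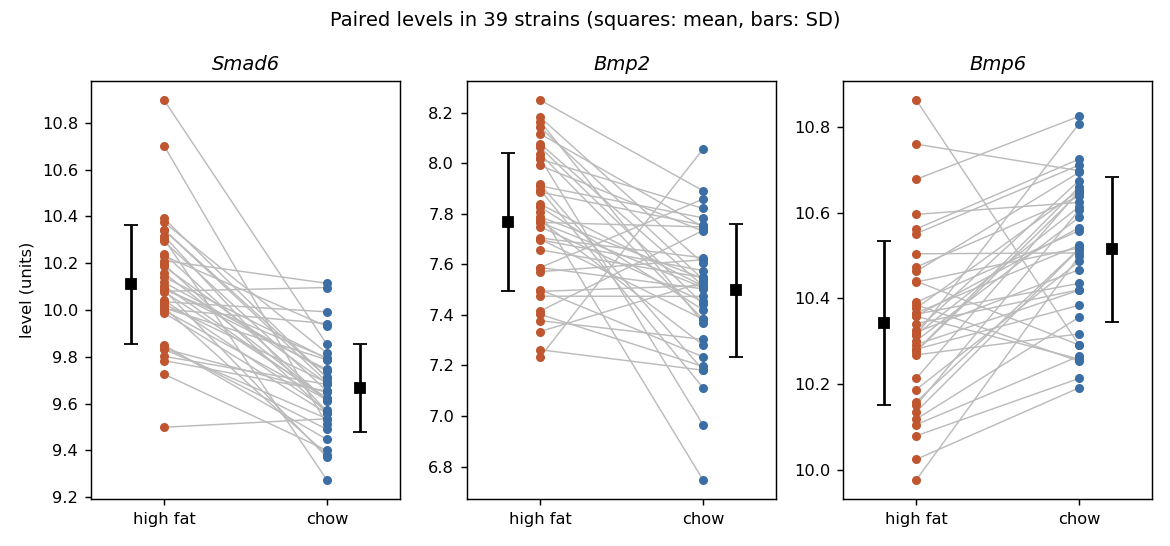
Levels in units of the 3 members called for diet, with high fat pools at the left and chow pools at the right of each panel and a line for each of 39 strains. Squares and bars give the mean and SD. Lines fall to the right in 37 strains for Smad6 and 33 for Bmp2, and climb to the right in 34 for Bmp6.

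The second question was whether the targets moved together from strain to strain. Among the targets, only the pair of Smad6 and Id2 had an r over 0.4 in the shifts and on the arrays of each diet. The ligand Bmp10 moved with both, and Id1 and Id3 did not join them. Over the 45 member pairs the Pearson r of the diet shifts had a median of 0.130 and ran from -0.394 (Id2 with Bmp6) to 0.652 (Id2 with Bmp10). The shifts of 2 genes come from the same arrays, so these r are given as descriptions, and only the pairs with Id1 were tested, in the fit over all genes described further on. An r over 0.5 was found for 5 pairs (11.1%), against 0.724% of the 61488505 pairs among all genes above the median level. All 5 pairs hold Smad6 or Id2, and the members were chosen with earlier results of these data known. Bmp2 (mean level 7.63 units) lies under that level. The 2 shares are therefore a description and no test of the pathway.

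Only 3 pairs had an r over 0.4 in the shifts, on the high fat arrays and on the chow arrays, and they joined the same 3 genes. Smad6 with Id2 gave r = 0.592 over 39 shifts, 0.537 over 39 high fat arrays and 0.609 over 42 chow arrays. Smad6 with Bmp10 gave 0.647, 0.631 and 0.620 in that order, and Id2 with Bmp10 gave 0.652, 0.478 and 0.584. Spearman's rho of the shifts was 0.559, 0.631 and 0.668 for these pairs. BXD63 shows the pattern: its high fat pool exceeded its chow pool by 1.03 units in Smad6, 0.846 in Id2 and 6.42 in Bmp10, while Id1 differed by -0.335.

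The remaining pairs were looser. The inhibitory Smads gave r = 0.528 for the shifts of Smad6 with Smad7, 0.526 on high fat arrays and 0.311 on chow arrays. Id2 with Bmp4 gave 0.536 for the shifts, 0.655 on high fat and 0.294 on chow. Among the 10 pairs of the targets Smad6, Smad7, Id1, Id2 and Id3 the median r of the shifts was 0.192, and 8 were positive.

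Id1, a direct target often used to read BMP activity, was followed on its own. Its shift was tested against the shift of every other gene in limma, and 0 of 22179 genes passed (0%), with 1377 at an unadjusted p under 0.05 (6.21%) and a lowest adjusted p of 0.230. None of the 9 other members was called. Id3 gave r = 0.244 and rho = 0.0621 with Id1 (permutation p = 0.133 and 0.707, limma adjusted p = 0.850, 9 relations computed). Without BXD65 and BXD48, the 2 strains with Id1 shifts farthest from the median, that r was 0.0145. Levels of Id1 and Id3 gave r = 0.582 on high fat arrays and 0.278 on chow arrays, as descriptions. Smad6 and Id2 had shifts of opposite tendency to Id1 (r = -0.212 and -0.290), neither called. The genes most like Id1 in shift among brighter genes were Zfp366 (r = 0.621), Sgms1 (0.618), Gimap6 (0.611), Shld1 (0.607) and Cdk13 (0.547), over 39 strains and with adjusted p of 0.230 or higher.

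**Figure D3:**
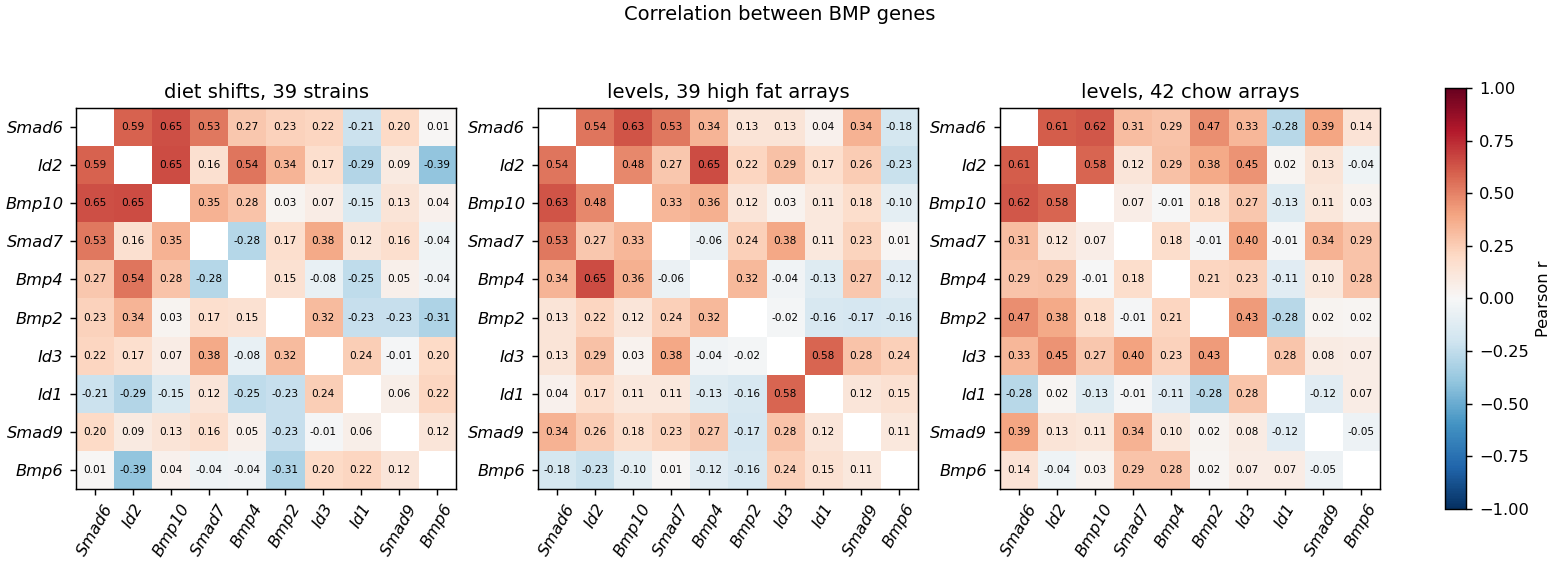
Pearson r for each of the 45 member pairs, by colour and printed value, for the diet shifts over 39 strains (left) and the levels on 39 high fat arrays (middle) and 42 chow arrays (right). Smad6, Id2 and Bmp10 form the block at the upper left, with r between 0.478 and 0.652 in the 3 panels, and the Id1 row holds only 1 value over 0.5, with Id3 on high fat arrays.

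The third question was how the members followed the amount of atrial tissue in a pool. The level of atrial muscle was read as the mean of Sln, Myl4, Myl7, Nppa, Kcnj3, Dkk3 and Stard10, without Bmp10. Bmp10 and Id2 followed it closely, Smad6 less so, and Id1 was not called. All 7 markers lay above the median gene level and none was called for diet. The mean had a lowest, median and highest value of 9.47, 12.39 and 13.73 units on high fat arrays and of 9.79, 12.43 and 13.53 units on chow arrays. The diets overlapped over nearly the whole range, and the within-strain shift ran from -2.76 (BXD68) to 2.59 units (BXD63), so pools of 1 strain could hold very different atrial levels.

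Over the 39 strains the Bmp10 shift followed the atrial shift with r = 0.769 and rho = 0.827 (permutation p = 1e-05 for both, the smallest they can give, limma adjusted p = 5.13e-07). It changed by 1.65 ± 0.210 units (SE) per unit of the atrial mean. Id2 gave r = 0.756 and rho = 0.754 (permutation p = 1e-05 for both, limma adjusted p = 4.85e-06) and a slope of 0.212 ± 0.0299. Smad6 gave r = 0.485 and rho = 0.525 (permutation p = 0.00162 and 0.00066) but missed the threshold over all genes (limma adjusted p = 0.0603). Thus 2 of 10 members were called, against 2.11% of all genes (467 of 22180). Bmp10 is itself an atrial transcript, and the members and marker lists were chosen with earlier results of these data known. Such counts, here and within each diet below, therefore describe the listed members alone. Dkk3 and Stard10, on the atrial list, were also the genes most like Bmp10 in level, as given below. The relation of Bmp10 to the atrial mean is therefore no independent test.

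Without BXD63 and BXD80, the strains with atrial shifts farthest from the median, r was 0.725 for Bmp10, 0.756 for Id2 and 0.465 for Smad6. Without the 9 strains that had a pool of low atrial mean, described next, Smad6 gave r = 0.657 and passed (limma adjusted p = 0.00401, 30 strains). The other 7 members had r between -0.265 (Id1, limma adjusted p = 0.534) and 0.276 (Bmp4, limma adjusted p = 0.496), and none was called.

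Within a diet the arrays fell into separate groups on the atrial mean. On high fat 4 pools lay at 9.71 or below (BXD68, BXD65, BXD44 and BXD71) and the rest at 11.2 or above. On chow 6 pools lay at 10.46 or below (BXD65, BXD73, BXD61, DBA/2J, BXD80 and BXD81) and the rest at 11.1 or above. Correlations are therefore given within the upper groups.

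Over the 35 upper high fat arrays the level of Bmp10 had r = 0.647 and rho = 0.684 with the atrial mean (limma adjusted p = 0.00149). Id2 gave r = 0.575 and rho = 0.524 (limma adjusted p = 0.0195), and Smad6 0.535 and 0.545 (limma adjusted p = 0.0487). Bmp4 gave 0.50 and 0.401 and was not called (limma adjusted p = 0.0909). With all 39 high fat arrays in the fit 4 members were called (Bmp10, Id2, Bmp4 and Smad6), against 2.22% of all genes. Without BXD68 and BXD65, the 2 lowest of these arrays, only Bmp10 and Smad6 were called.

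Over the 36 upper chow arrays Bmp10 gave r = 0.806 and rho = 0.803 (limma adjusted p = 1.64e-07), Id2 0.635 and 0.570 (limma adjusted p = 0.00281), and Smad6 0.576 and 0.531 (limma adjusted p = 0.0207). Bmp4 gave r = -0.0903 there and was not called, and the difference from its value on high fat arrays was not tested. With all 42 chow arrays 2 members were called (Bmp10 and Id2), against 1.29% of all genes, and without the 2 lowest (BXD65 and BXD73) only Bmp10.

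**Figure D4:**
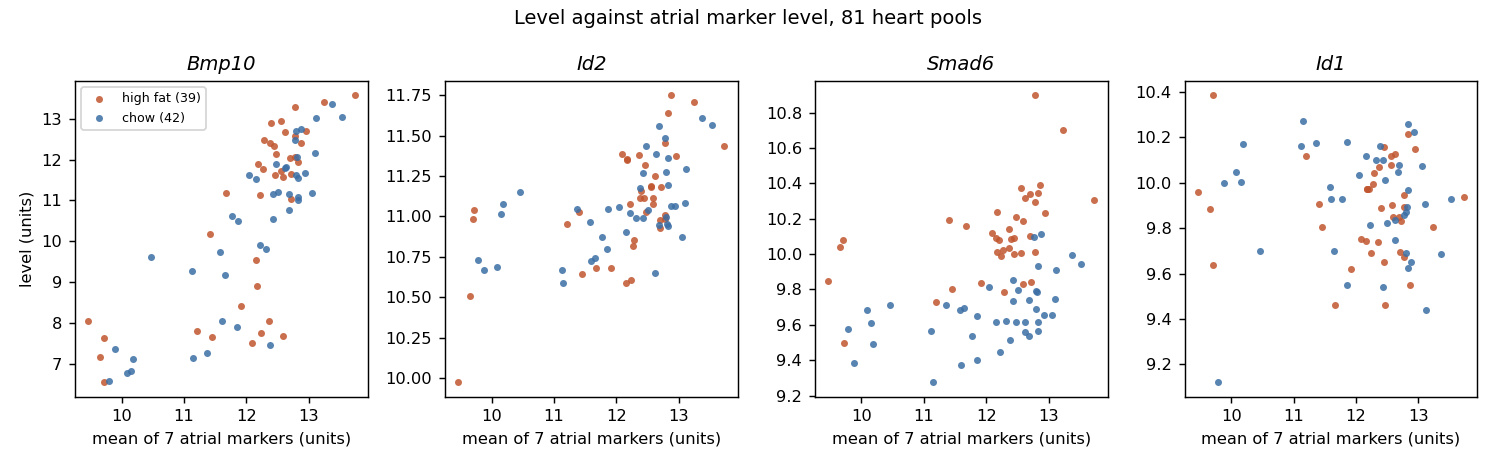
Level in units of Bmp10, Id2, Smad6 and Id1 against the mean of 7 atrial markers in units, with 1 point per pool (39 high fat, 42 chow). Bmp10, Id2 and Smad6 climb with the atrial mean on both diets, most high fat points of Smad6 lie above the chow points at a like atrial mean, and Id1 shows no such trend.

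Genes most like Bmp10 in level among brighter genes, by the mean of the r on 39 high fat and 42 chow arrays, were Dkk3 (0.864), Stard10 (0.809), Sbk3 (0.809), Mybphl (0.791) and Mlana (0.778). Dkk3 and Stard10 are themselves on the atrial list. By the same measure Smad6 stood at rank 64 of all genes (0.626) and Id2 at rank 135 (0.531).

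With the atrial mean added to the diet fit, the same 3 members were called, against 45.4% of all genes. Smad6 then differed by 0.432 ± 0.0398 units (SE, limma adjusted p = 1.05e-11), close to its value without the term. Bmp2 differed by 0.267 units (limma adjusted p = 1.90e-04) and Bmp6 by -0.169 (limma adjusted p = 6.97e-05). Id2 moved to 0.0235 units and Bmp10 to 0.348 ± 0.271 (SE), both not called. Holding the atrial shift fixed, the partial r of the shifts was 0.394 for Smad6 with Id2, 0.491 for Smad6 with Bmp10 and 0.168 for Id2 with Bmp10.

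Marker lists of other cell types are set beside these genes here, against the 23.8% of all genes that were higher and the 21.2% that were lower. Of 7 mesothelial and epicardial markers 5 were higher on high fat and 0 lower, and their mean lay between 8.17 and 8.97 units on high fat arrays and between 7.98 and 8.72 on chow arrays. Calb2 was the lowest of them (5.89 units). Of 7 fibroblast markers 3 were higher and 0 lower (mean 11.18 to 11.88 units on high fat, 11.08 to 11.83 on chow), and of 6 macrophage markers 2 were higher and 0 lower. Of 10 endothelial markers 2 were higher and 1 lower, and of 4 endocardial markers 0 were called. Of 7 smooth muscle and pericyte markers 1 was higher and 0 lower, and of 6 valve and cartilage markers 2 were higher and 1 lower. Of 6 adipocyte markers 1 was higher and 1 lower, the latter Adipoq, by -0.852 units and in all 39 strains. Muscle markers went the other way. Of 6 ventricular markers 3 were lower, and of 5 general cardiomyocyte markers 3, with 0 of either list higher. Myh6, one of those lower, is on both lists. These lower muscle markers differed by -0.151 (Kcnip2) to -0.0538 units (Tnni3), inside the 0.247 units that held 95% of spike-ins. Of the markers counted as higher, only Upk3b, Krt8, Calb2, Cidea and Cilp differed by more than that. With so few markers to a list, counts such as 3 of 7 or 2 of 10 are near the share of all genes.

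The Smad6 shift had r = 0.676 and rho = 0.650 with the fibroblast mean shift, 0.646 and 0.541 with the endocardial and 0.638 and 0.658 with the mesothelial. It had r = 0.622 with the macrophage, 0.157 with the endothelial and -0.407 with the ventricular mean shift. Id2 gave r = 0.779 with the mesothelial, 0.756 with the fibroblast, 0.734 with the endocardial, 0.673 with the macrophage and -0.534 with the ventricular mean shift. It also gave 0.738 with the valve and cartilage, 0.601 with the smooth muscle and pericyte and 0.535 with the adipocyte list. Bmp10 gave 0.752 with the endocardial, 0.676 with the mesothelial, 0.665 with the adipocyte, -0.124 with the endothelial and -0.458 with the ventricular mean shift. These lists are not separate from the atrial one. Their mean shifts had r = 0.736 (mesothelial), 0.668 (fibroblast), 0.738 (endocardial), 0.488 (macrophage) and -0.485 (ventricular) with the atrial shift. For the valve and cartilage, smooth muscle and pericyte, and adipocyte lists that r was 0.782, 0.725 and 0.546. Markers within a list did not all go one way. With the atrial shift the smooth muscle genes Cnn1, Tagln, Myh11 and Acta2 gave 0.819, 0.674, 0.646 and 0.488. Abcc9, Rgs5 and Kcnj8 of that list gave -0.645, -0.463 and -0.205. Unlike the rest of their lists, Wt1 (-0.251), Calb2 (-0.124), Nfatc1 (-0.191) and Cidea (-0.210) also had a negative r. Endothelial markers ran from -0.568 (Tie1) to 0.547 (Emcn). With each of 11 marker list means added in turn, the Smad6 difference stayed between 0.310 (mesothelial) and 0.453 units, with adjusted p of 5.05e-07 or lower. With Slc4a1, the 1 measured marker of an erythroid list not among the 11, the Smad6 difference was 0.464 units. The Bmp6 difference stayed between -0.211 (endothelial) and -0.143 units (mesothelial), called each time. Bmp2 differed by 0.163 units with the mesothelial term and just missed the threshold (limma adjusted p = 0.0505). Id2 differed by -0.164 units with that term (limma adjusted p = 0.00452), a sign opposite to its value without it. The part of these cell types in the diet differences was not tested beyond these fits.

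The fourth comparison was between strains. Id1 was the only member called for strain in limma's F test (adjusted p = 0.0469), against 14.8% of all genes. The call was lost with quantile normalization (limma adjusted p = 0.0506) and with BXD strains only (0.0542), and with a trended, robust variance Smad9 (0.0460) and Bmp6 (0.0344) were called as well. With the atrial mean added Id2 joined it (0.00127). The intraclass correlation, which measures how far the high fat and chow arrays of a strain resemble each other, was 0.364 for Id1. The mean of its 2 arrays ran from 9.50 units in BXD65 to 10.24 in BXD44. Bmp6 (0.348), Smad9 (0.330) and Id2 (0.312) had similar intraclass correlations and adjusted p of 0.0754, 0.0605 and 0.0651. For Bmp10 the value was only 0.113 and for Smad7 0.0561. The median was 0.235 for the members and 0.155 for all genes.

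No member was called between DBA/2J and C57BL/6J, a contrast that called 2.36% of all genes. An unadjusted limma p under 0.05 was found for 2 of 10 members, against 2875 of all 22180 genes. With so few members, 2 of 10 is near that share. Smad7 had 10.56 units on high fat and 10.38 on chow in DBA/2J, and 10.03 on high fat and 9.79 on chow in C57BL/6J. Both DBA/2J arrays lay above both of C57BL/6J, and the difference was 0.566 ± 0.220 units (SE, limma adjusted p = 0.212). Smad9 differed by 0.456 ± 0.206 units (SE, limma adjusted p = 0.314). Bmp10 had 11.89 units on high fat and 6.84 on chow in DBA/2J, and 12.59 on high fat and 11.66 on chow in C57BL/6J (difference -2.76 ± 1.84 units, SE, limma adjusted p = 0.577). The chow array of DBA/2J was 1 of the 6 with a low atrial mean.

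Around the members, the wider pathway moved in both directions. Of 59 other listed genes 22 were higher on high fat (37.3%), 12 lower (20.3%) and 25 not called, beside the 23.8% and 21.2% of all genes. Their median difference was 0.0399 units. Of the genes named below, only Gdf6, Bmper, Nog, Hey1, Msx2 and Hamp2 differed by more than the 0.247 units that held 95% of spike-ins. The other differences named below lay inside that range. Only that of Bmper exceeded the largest spike-in difference (0.430 units). A further 5 listed symbols were not analysed here, among them Hfe2, an older name of Hjv.

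Of 9 other ligands 4 were higher and 2 lower. By mean level 6 of the 9 lay under the median gene level (8.18 units), among them Gdf6 (7.44), Gdf5 (7.56) and Bmp5 (8.02). Gdf6 and Gdf5, joint and skeletal ligands, differed by 0.347 and 0.239 units, Bmp3 by 0.199 and Bmp5 by -0.247. Of 10 receptors and co-receptors 4 were higher and 0 lower. Acvr1, the type I receptor ALK2, was higher in 33 strains by 0.213 ± 0.0332 units (SE, limma adjusted p = 1.24e-06). The activin type II receptors Acvr2a and Acvr2b differed by 0.154 and 0.134, and endoglin (Eng), a co-receptor for Bmp10 on endothelium, by 0.0672.

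Of 5 Smad transducers 2 were higher (Smad2 by 0.115 and Smad5 by 0.0970 units) and 2 lower (Smad3 by -0.176 and Smad1 by -0.122). Smad1 and Smad5, which carry the same BMP signal, thus had differences of opposite sign, both inside the range that held 95% of the spike-ins. The common partner Smad4 was not called.

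Of 13 extracellular antagonists 2 were higher and 5 lower. Bmper, a secreted protein that binds BMPs, averaged 8.10 ± 0.219 units on high fat and 8.60 ± 0.186 on chow (SD, n = 39 strains each). It was lower in all 39 strains, by 0.501 ± 0.0370 units (SE, limma adjusted p = 1.62e-14). The trapping proteins Nog, Grem1 and Sostdc1 differed by -0.291, -0.227 and -0.170 units. Their mean levels (6.57, 7.53 and 7.81 units) were under the median gene level, as were those of 6 of the 13 antagonists. Of 7 intracellular and membrane brakes 4 were higher and 1 lower. The ubiquitin ligase Smurf2, the nuclear corepressor Ski and the pseudoreceptor Bambi differed by 0.115, 0.148 and 0.122 units, and the antiproliferative protein Tob1 by -0.122.

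Of 9 other targets 2 were higher, 2 lower and 5 not called. Hey1, a transcriptional repressor shared with the Notch pathway, was higher in 35 strains by 0.313 ± 0.0397 units (SE, limma adjusted p = 1.95e-08), and Id4 differed by 0.130. Msx2, a homeobox target, and Hamp2, a hepcidin gene, differed by -0.293 and -0.421 units. Msx2 (mean level 6.60 units) and Id4 (8.04) lay under the median gene level. Of 6 genes of the TGF-beta arm 4 were higher and 0 lower, with Tgfb1, Tgfbr1, Tgfb3 and Tgfbr2 between 0.125 and 0.162 units.

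**Figure D5:**
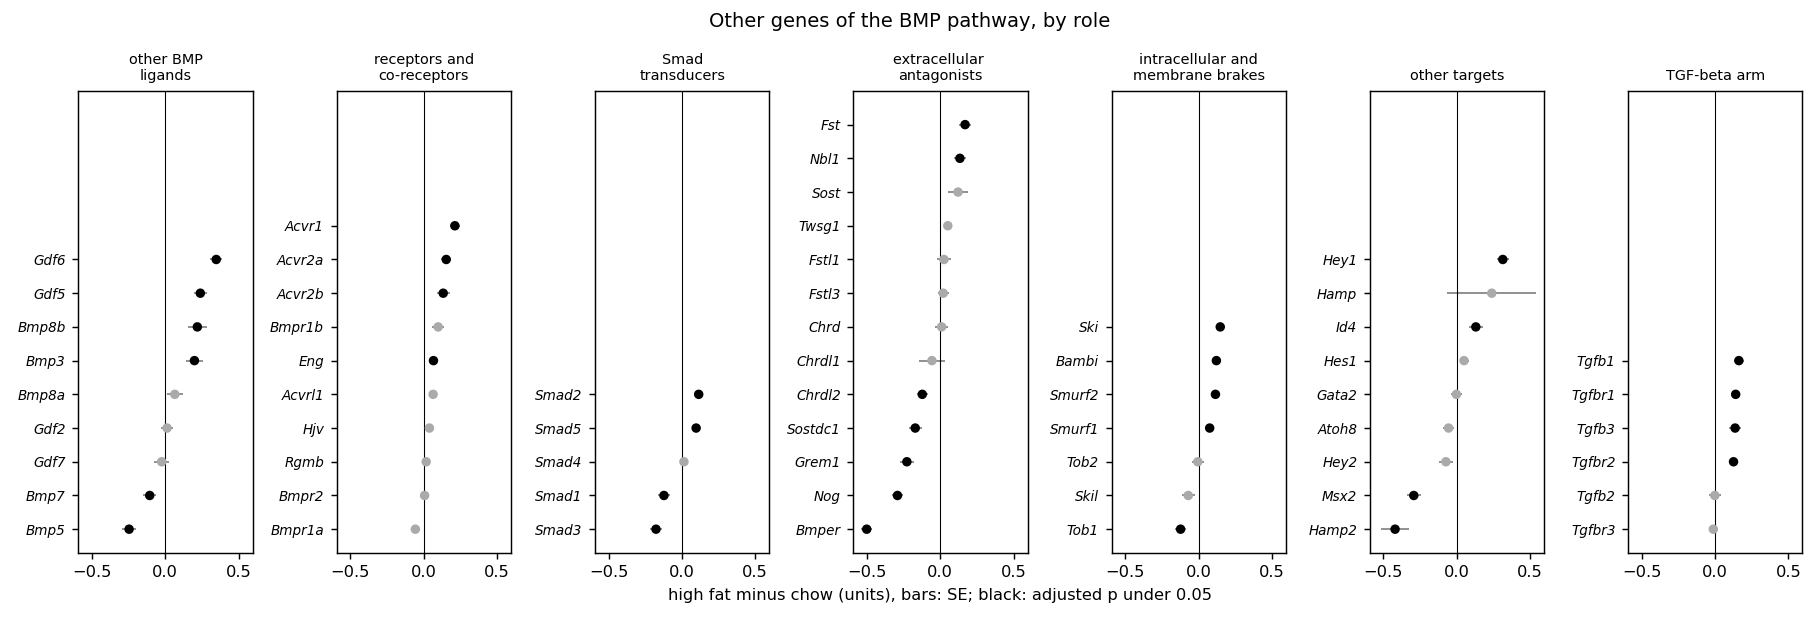
Difference high fat minus chow in units (horizontal axis, bars SE) of 59 other pathway genes, in 1 panel for each of 7 roles. Black points passed an adjusted p of 0.05 and grey points did not. Antagonists run down to -0.501 units (Bmper), and the receptor and TGF-beta panels hold no black point below 0.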

How the data were processed

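Labels gave the diet (treatment) and the strain (genotype). The authors deposited 1 score for each probe set and array. Affymetrix Expression Console made them, per the submitters' processing notes. How probes were summarised, and any log base, is unknown here. The plan assumed log2 values. Of 41345 probe sets 23521 have 1 gene symbol in the platform's gene table, and the brightest per gene was used. Array medians ran from 7.62 to 7.75 and r between arrays from 0.969 to 0.992. Rescaling hides a shift shared by most genes. Precision is set by how many arrays there are.

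Tests used R 4.3.3 and limma 3.58.1 (lmFit and eBayes), with strain and diet as terms on 78 arrays for diet, strain and parents. Shifts and levels were also fitted on the atrial mean or the Id1 shift. Permutation p are two-sided from 100000 draws. The pairing by strain comes from the labels: arrays of 1 strain had a median r of 0.248 in their deviations from the diet means, against -0.00927 for other strains, and 31 of 39 matched their own strain best. The fits were tested on simulated data. The diet fit called 73 of 100 genes changed by 0.2 units and 96 of 100 changed by 0.4. The relation fit called 79 of 100 genes at r = 0.6 and 100 of 100 at 0.8. The strain fit called 89 of 200 genes with a strain SD equal to the residual SD. Each simulation changed only 200 of 22180 genes, whereas 14.8% of genes were called for strain and 45% for diet in the data. The adjustment over all genes differs with that share, so these rates are not the power of the reported fits. Members not called for strain may still differ between strains. All members are named, and of other pathway genes up to 4 per role with the smallest adjusted p. The 5 genes most like Id1 in shift and Bmp10 in level are named as well. The members and lists were chosen with earlier results of these data known. Alternatives changed the strain term, the variance model, the weights of arrays (statmod 1.5.0), scaling, dim genes, probe sets, strains, atrial list and covariates. Those removing low atrial pools or adding other marker lists were chosen after seeing the data.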

Additional observations from a re-analysis of the deposited data

How the results depend on the processing

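The diet comparison called 3 members under each alternative run except the one without dim genes. Without the strain term (no replicate block) it called 3 members on 78 and on 81 arrays. Leaving out dim genes took Bmp2, with a mean level under the median gene level, out before the fit and left 2 called. With the mesothelial term the 3 were Smad6, Bmp6 and Id2, whose sign turned (-0.164 units), while Bmp2 was lost (0.163 units). Leaving out each strain in turn gave 3 members each time, with Smad6 between 0.422 and 0.454, Bmp2 between 0.251 and 0.300 and Bmp6 between -0.191 and -0.162 units. Over 21 settings Smad6 and Bmp6 were called in 21. Bmp2 was called in 19 of 20. Members called for strain numbered 1 and changed to 3 with a trend and robust variance, to 0 with quantile normalization (Id1 adjusted p = 0.0506), to 0 with BXD strains only (Id1 adjusted p = 0.0542) and to 2 with the atrial mean added. The counts of all genes in these strain runs are not given here, so the change in members cannot be set against them. Without the 2 strains or arrays farthest in atrial mean, genes called for the atrial shift numbered 311 in place of 467. On high fat arrays they numbered 317 in place of 493, with 2 members in place of 4, and on chow arrays 1 member in place of 2. For that chow fit the count of all genes is not given here. Above the gap in atrial mean 304 genes were called on high fat arrays. Fewer arrays were in these fits. Of the other values for single genes 490 stayed on their side of the threshold, 6 newly passed it and 7 no longer did. The alternative with another probe set of a member could not be run, since each has 1.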
